A study of Mus musculus with 5 samples.

Results

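Microglia are the resident macrophages of the brain, and the 30 genes described here are known for their expression in them. They were chosen by symbol, and all 30 were found among the 35976 gene rows of a read count table made from astrocytes of the mouse amygdala. They were divided by their known roles into 11 homeostatic genes, 8 activation-linked genes and 11 general myeloid genes. All 30 passed the low-count filter of the test.

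The mice carried the genotype Ccr2::CreERT2/+;DTR/+ in every group, so that tamoxifen switches on a diphtheria toxin receptor in cells that use the Ccr2 locus. All received tamoxifen, were restrained in tubes for 18 days and then underwent fear conditioning and extinction. Saline (2 libraries analysed here, replicates 1 and 2) was compared with DTx, diphtheria toxin (3 libraries, called 5A, 6A and 7A), to ask what loss of CCR2-expressing monocytes does to astrocytes. The age of the mice is not given in the sources used here, and a further saline library was not analysed here. Cells were freed with papain and collected on magnetic beads against ACSA-2, a surface epitope of astrocytes, and each library was made from 5 ng of RNA. The transgene is driven from the Ccr2 locus, which microglia are not known to use in the healthy adult brain.

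Homeostatic microglia survey the tissue with purinergic, chemokine and lipid receptors such as P2RY12 and CX3CR1, and depend on the growth factor receptor CSF1R. When they meet debris, antibody or injury, signalling through TREM2, Fc receptors and their adaptor proteins, lysosomal genes and complement tend to increase, and some of the homeostatic receptors tend to decrease. Most of the activation-linked and general myeloid genes are also made by monocytes and by macrophages of the brain's borders, whereas Tmem119, P2ry12, Siglech and Sall1 are used as markers that set microglia apart from those cells.

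Several facts of these libraries bear on every value below. Total counts were 15961220 to 23720299 per library, and levels are given in CPM, counts scaled to a common library size with TMM factors. Values of a gene are listed as saline replicate 1, saline replicate 2, then libraries 5A, 6A and 7A. Ccr2 had 0 counts in both saline libraries and 54, 4 and 4 counts in 5A, 6A and 7A. That order runs against the depletion expected from the label, but most of the counts were in library 5A. Ccr2 did not pass the low-count filter and was not tested. The groups are therefore called saline and DTx-labelled, and every direction is that of the labels. Xist had 3739 and 2876 counts in saline and 3, 0 and 0 in the DTx-labelled libraries, while the Y-linked Ddx3y had 4 and 1 against 2309, 1865 and 2365. The Y-linked Eif2s3y, Uty and Kdm5d divided the libraries the same way, so effects of sex and of treatment cannot be told apart. Markers of astrocytes summed to 26540 to 31300 CPM over 13 genes, and those of oligodendrocytes to 42980 to 92810 CPM over 10 genes, so the libraries held RNA of other glia in quantity. The 13 mitochondrial genes took 5.81% to 6.94% of counts.

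Members that lie side by side in the genome are of interest because neighbouring genes can share regulation. On GRCm38, P2ry12 and P2ry13 lay 5.39 kb apart on chromosome 3, and Tmem119 and Selplg 18.0 kb apart on chromosome 5. C1qa, C1qc and C1qb lay within a cluster on chromosome 4 with gaps of 2.85 and 3.62 kb. Promoters were searched for GAGGAAGT, a core sequence bound by PU.1, the transcription factor encoded by the member Spi1, on both strands of the 250 bases before each RefSeq start (GRCm38.p6). Of the 30 members, 22 had a RefSeq promoter to search. The motif was in 2 of those 22 genes, C1qc and Inpp5d (9.09%), against 2.79% of all 27025 genes with a promoter. The ETS-IRF composite element, GGAA and GAAA on the same strand with 2 bases between them, was found in 0 of the 22 and in 2.68% of all genes. A match here is a description of letters only. The sequences with a match are printed 5′ to 3′ in the direction of the gene, without bases that GENCODE M21 places inside the gene, and capitals mark the motif or its reverse complement.
C1qc, chr4:136893066-136893164, minus strand: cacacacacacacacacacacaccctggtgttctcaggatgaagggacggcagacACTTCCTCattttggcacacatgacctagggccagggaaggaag
Inpp5d, chr1:87620062-87620311, plus strand: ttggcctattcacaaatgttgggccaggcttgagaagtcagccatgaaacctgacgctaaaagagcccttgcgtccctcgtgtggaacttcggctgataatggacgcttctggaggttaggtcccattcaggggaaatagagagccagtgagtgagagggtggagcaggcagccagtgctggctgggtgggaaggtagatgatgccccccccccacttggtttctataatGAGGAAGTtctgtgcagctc
The match ended 13 bases before the RefSeq start in Inpp5d and 188 bases before it in C1qc.

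Together the 30 genes were a small share of each library. They held 3515 counts in saline replicate 1, 0.0171% of the total (exact 95% binomial interval 0.0165% to 0.0177%, for counting error only). The share was 0.0385% (0.0377% to 0.0393%) in saline replicate 2 and 0.0805% (0.0792% to 0.0818%) in library 5A. In libraries 6A and 7A it was 0.0512% (0.0501% to 0.0523%) and 0.0407% (0.0398% to 0.0417%). As summed levels, these were 162 and 409 CPM (saline) against 757, 508 and 434 CPM (DTx-labelled). The groups did not overlap, but saline replicate 2 lay much nearer to library 7A than to the other saline library. In bulk samples, the number of microglia in the tissue, their carry-over through bead selection and their RNA per cell cannot be told apart. The mean of the log2 sums was 1.10 higher in the DTx-labelled group, a 2.14-fold difference, with a pooled within-group SD of 0.64 on the log2 scale. Without saline replicate 1 this difference was 0.425, and without saline replicate 2 it was 1.762.

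**Figure D1:**
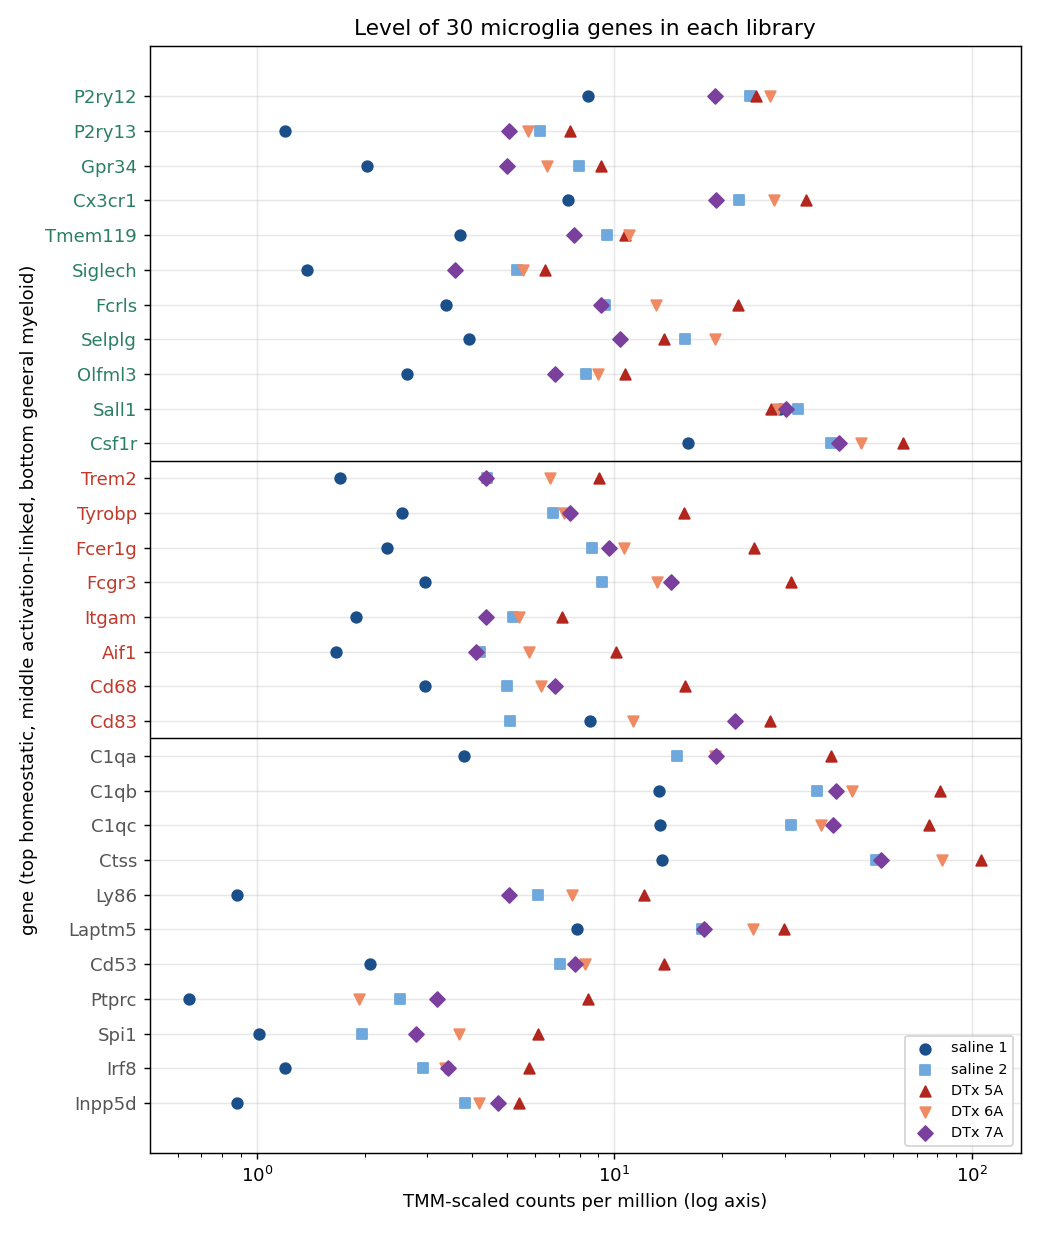
Level of each of the 30 genes in each of 5 libraries, as TMM-scaled CPM on a log axis, with 1 marker per library and the 3 classes separated by lines. Saline replicate 1 is the lowest library for 28 of the 30 genes, and Sall1 and Cd83 are the exceptions.

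The test across all genes called none of the members. With edgeR's quasi-likelihood test and Benjamini-Hochberg adjustment over 15532 genes, 0 of 30 members passed an adjusted p of 0.05, where 0.0322% of all genes did. The 5 genes that passed were Xist and the Y-linked Ddx3y, Eif2s3y, Uty and Kdm5d, which divide the libraries by sex. The smallest adjusted p among the members was 0.742. Before adjustment, 5 members (Cd83, Spi1, Fcgr3, Cd68 and C1qc) had p under 0.05 and were higher in the DTx-labelled libraries, against 4.49% of all genes, and 0 were lower, against 2.19%. limma-voom also called 0 members, with 12 at an unadjusted p under 0.05 against 6.26% of all genes. DESeq2 called 1, Cd83, with an adjusted p of 0.0499, and had 16 at an unadjusted p under 0.05 against 6.99% of all genes. The log2 fold change was above 0 for 29 of 30 members, against 50.3% of all genes, and its median was 1.12 over the members and 0.002 over all genes tested. The levels of the groups did not overlap, with DTx-labelled higher, for 15 members, against 12.1% of all genes, and with DTx-labelled lower for 0 members, against 8.99%. Markers of neurons were also higher in the DTx-labelled libraries. Their summed level over 10 genes was 359.8 and 317.6 CPM (saline) against 415.8, 491.4 and 461.7 CPM (DTx-labelled), without overlap. The median log2 fold change of the neuron markers was 0.69, with 9 of 10 above 0, 0 past the edgeR adjusted threshold and 4 (Stmn2, Syt1, Gad1 and Gad2) at an unadjusted p under 0.05. Their part in the members' values was not tested.

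One library on each side weighed heavily in these counts. The members' median log2 fold change was 0.51 without saline replicate 1, 1.95 without saline replicate 2 and 0.72 without library 5A. The members with an unadjusted p under 0.05 numbered 1, 26 and 1 in the same 3 fits, where 4.57%, 12.3% and 3.86% of all genes were under it. They numbered 6 without library 6A, against 3.12% of all genes, and 7 without library 7A, against 13.3%. Saline replicate 1 was the lowest of the 5 libraries for 28 of 30 members, against 28.4% of all genes, and library 5A was the highest for 26 of 30, against 19.7%. All 3 DTx-labelled libraries exceeded saline replicate 1 for 29 of 30 members, against 33.3% of all genes. Of the variance of the members around their own means on the log2 CPM scale, 84.7% was carried by a single value per library shared by all of them. The 30 genes of a library come from the same RNA, so this is a description of 5 libraries.

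**Figure D2:**
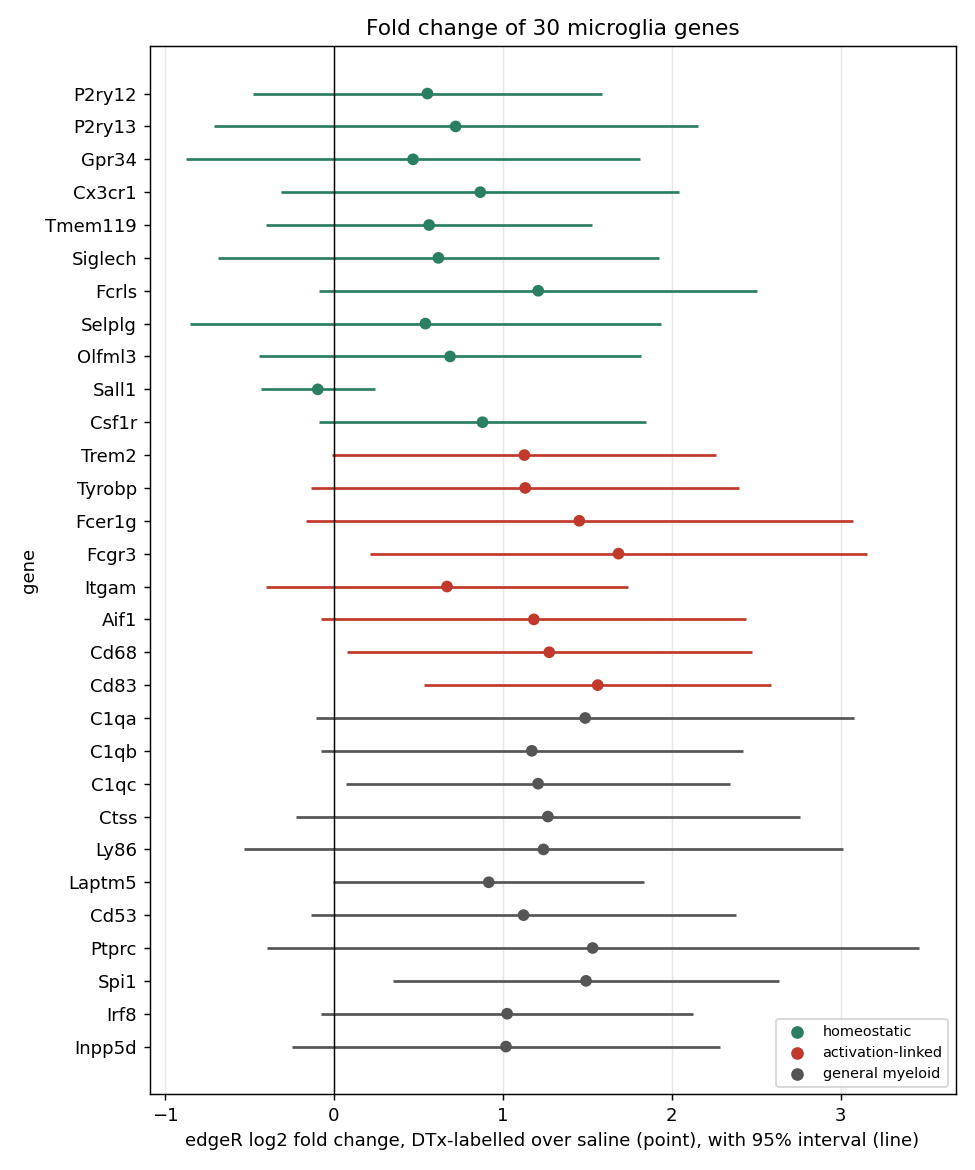
edgeR log2 fold change of each member, DTx-labelled over saline, as points with 95% intervals as lines, coloured by class. The interval lies above 0 for Cd83, Spi1, Fcgr3, Cd68 and C1qc before any adjustment, and no member passes after adjustment over all genes.

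The homeostatic class had the smaller differences. Of its 11 genes 10 had a log2 fold change above 0, with a median of 0.62 (1.53-fold), 0 had an unadjusted p under 0.05, and 1, Csf1r, had groups that did not overlap, a share near the 12.1% of all genes. Without saline replicate 1 the class median was -0.01, with 5 of 11 genes above 0.

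Receptors with which resting microglia sense their surroundings came first. P2ry12, an ADP receptor that steers microglial processes towards damage, was at 8.45 and 23.9 CPM (saline) against 24.9, 27.3 and 19.1 CPM (DTx-labelled). Its neighbour P2ry13, a related ADP receptor, was at 1.20 and 6.19 CPM (saline) against 7.51, 5.72 and 5.07 CPM (DTx-labelled). Gpr34, an X-linked receptor for lysophosphatidylserine, was at 2.03 and 7.94 CPM and then 9.20, 6.47 and 5.01 CPM. For all 3 receptors the groups overlapped, because saline replicate 2 exceeded library 7A, and for P2ry13 and Gpr34 also library 6A. Their log2 fold changes were 0.55 for P2ry12 (95% interval -0.48 to 1.59), 0.72 for P2ry13 (-0.71 to 2.15) and 0.47 for Gpr34 (-0.88 to 1.81). Cx3cr1, the receptor for the neuronal chemokine fractalkine, was at 7.43 and 22.4 CPM (saline) against 34.4, 27.9 and 19.2 CPM (DTx-labelled). Its groups overlapped through library 7A only, as for P2ry12, and its log2 fold change was 0.87 ± 0.482 (SE, edgeR adjusted p = 0.773).

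The surface and secreted markers of the class followed a like order of libraries. Tmem119, a membrane protein used to label microglia, was at 3.69 and 9.504 CPM (saline) against 10.7, 10.9 and 7.69 CPM (DTx-labelled). Siglech, a sialic acid-binding lectin, was at 1.39 and 5.33 CPM and then 6.40, 5.53 and 3.59 CPM. Selplg, the P-selectin ligand, was at 3.92 and 15.8 CPM and then 13.7, 19.1 and 10.4 CPM, so that saline replicate 2 exceeded 2 of the 3 DTx-labelled libraries. Olfml3, a secreted olfactomedin-family protein, was at 2.63 and 8.34 CPM (saline) against 10.7, 9.02 and 6.84 CPM (DTx-labelled). In each of these 4 genes saline replicate 1 was lowest and the groups overlapped through library 7A. Fcrls, an Fc receptor-like scavenger molecule of mouse microglia, was at 3.37 and 9.41 CPM (saline) against 22.1, 13.1 and 9.17 CPM (DTx-labelled). Its log2 fold change of 1.21 was the highest of the homeostatic class (edgeR adjusted p = 0.764).

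Csf1r, the receptor for the survival factors CSF1 and IL-34, was at 16.02 and 40.4 CPM (saline) against 64.1, 49.1 and 42.4 CPM (DTx-labelled). The groups did not overlap, but the lowest DTx-labelled library lay close to saline replicate 2, and the edgeR adjusted p was 0.764 for a log2 fold change of 0.88 ± 0.399 (SE). Exons of Hmgxb3 on the opposite strand cover 15.1% of its exonic length, and whether counting used the strand is not given in the sources used here.

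Sall1 did not follow the other homeostatic genes. This zinc finger transcription factor, known for holding microglia in their resident identity, was at 29.0 and 32.6 CPM (saline) against 27.5, 28.7 and 30.3 CPM (DTx-labelled). Its highest library exceeded its lowest by 1.19-fold, the smallest range of the 30 genes, whereas the other members ranged from 2.96-fold for Tmem119 upwards. Its log2 fold change was -0.10 (95% interval -0.43 to 0.24). Sall1 took 36.6% of the summed homeostatic level in saline replicate 1 and 11.9% in library 5A. In saline replicate 1 it was above Csf1r, at 16.02 CPM, and P2ry12, at 8.45 CPM. Whether its RNA came from microglia or from other cells in these libraries was not tested.

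**Figure D3:**
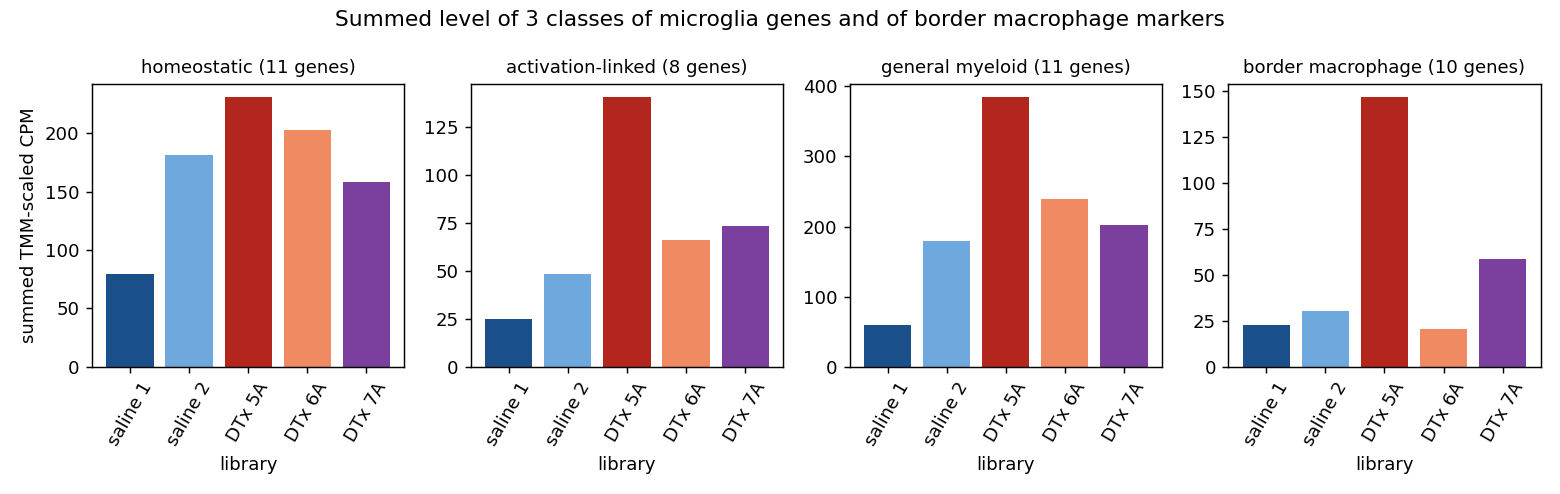
Summed TMM-scaled CPM of the homeostatic, activation-linked and general myeloid members and of 10 border macrophage markers, with a bar per library and each panel starting at 0. Library 5A is highest in all 4 panels, at 231, 141, 385 and 147 CPM, and its margin over the next library is smallest for the homeostatic genes.

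Activation-linked genes had a class median log2 fold change of 1.23 (2.34-fold), with 8 of 8 above 0, 3 with an unadjusted p under 0.05 (4.49% of all genes, DTx-labelled higher) and 5 without overlap between the groups (12.1% of all genes). Without saline replicate 1 the median was 0.73, with 8 of 8 above 0. Without library 5A it was 0.79, again with 8 of 8 above 0. Receptors and adaptors that signal through immunoreceptor tyrosine-based activation motifs made up 4 of the 8. Trem2, a receptor for lipids and lipoproteins, was at 1.71 and 4.39 CPM (saline) against 9.04, 6.59 and 4.39 CPM (DTx-labelled), so that the groups just overlapped, library 7A and saline replicate 2 being almost equal. Tyrobp, which encodes its adaptor DAP12, was at 2.54 and 6.72 CPM and then 15.7, 7.21 and 7.52 CPM. Fcer1g, the common gamma chain of Fc receptors, was at 2.31 and 8.65 CPM and then 24.6, 10.6 and 9.68 CPM. For both adaptors the groups did not overlap, but libraries 6A and 7A lay just above saline replicate 2 and library 5A stood apart. Fcgr3, a low-affinity receptor for IgG, was at 2.96 and 9.24 CPM (saline) against 31.2, 13.1 and 14.4 CPM (DTx-labelled), again without overlap. It had the highest log2 fold change of the 30 members, 1.68 ± 0.599 (SE, edgeR adjusted p = 0.742). It belongs to a family of similar Fc receptor genes, and how reads common to several genes were counted is not given in the sources used here.

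The remaining activation-linked genes are classical histological markers. Itgam, the integrin chain CD11b, was at 1.89 and 5.20 CPM (saline) against 7.14, 5.41 and 4.39 CPM (DTx-labelled). Aif1, the actin-binding protein Iba1, was at 1.66 and 4.21 CPM and then 10.1, 5.78 and 4.10 CPM. Both overlapped through library 7A. In GENCODE M21, exons of the gene model Gm49368 on the same strand cover 68.7% of the exonic length of Itgam, and how reads there were assigned is not known. Cd68, a lysosomal glycoprotein of phagocytes, was at 2.96 and 5.02 CPM (saline) against 15.8, 6.22 and 6.84 CPM (DTx-labelled), with no overlap and a log2 fold change of 1.27 (95% interval 0.08 to 2.47).

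Cd83 differed from the rest in its order of libraries. Cd83, an immunoglobulin-family surface protein of activated myeloid cells, was at 8.54 and 5.11 CPM (saline) against 27.2, 11.3 and 21.8 CPM (DTx-labelled). Among the members it was the only one with saline replicate 2 as the lowest library. Saline averaged 6.83 ± 2.43 CPM (SD, n = 2), the DTx-labelled libraries averaged 20.06 ± 8.09 CPM (SD, n = 3), and the groups did not overlap. Its log2 fold change of 1.56 ± 0.425 (SE) had the smallest p of the members before adjustment (edgeR adjusted p = 0.742). Relative to the median homeostatic gene of the same library, its log2 level was 1.19 and -0.88 in saline and 0.98, -0.21 and 1.24 in 5A, 6A and 7A, so on that scale the groups overlapped.

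General myeloid genes had a median log2 fold change of 1.21 (2.31-fold), with 11 of 11 above 0, 2 with an unadjusted p under 0.05 and 9 without overlap, against the same 4.49% and 12.1% of all genes. The median was 0.59 without saline replicate 1, with 11 of 11 above 0, and 0.82 without library 5A. C1qa, C1qb and C1qc encode the chains of complement C1q, which tags synapses and debris for removal. C1qa was at 3.79 and 14.9 CPM (saline) against 40.3, 19.2 and 19.2 CPM (DTx-labelled). C1qb was at 13.3 and 36.8 CPM and then 81.2, 46.2 and 41.7 CPM, and C1qc at 13.4 and 31.2 CPM and then 76.0, 37.8 and 40.8 CPM. All 3 had no overlap between groups, the same lowest library and the same highest library. Per kb of exon their mean levels over the 5 libraries were 18.7 CPM for C1qa, 40.3 CPM for C1qb and 20.6 CPM for C1qc. C1qb was the highest of the 3 chains per kb in 5 of 5 libraries. The log2 fold change was 1.49 for C1qa, 1.17 for C1qb and 1.21 for C1qc, with edgeR adjusted p of 0.764, 0.764 and 0.745.

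Lysosomal and membrane proteins of leukocytes gave a wider spread. Ctss, the lysosomal protease cathepsin S, had the highest level per kb of all members, with a mean of 45.9 CPM per kb. It was at 13.6 and 54.0 CPM (saline) against 105.9, 82.2 and 55.7 CPM (DTx-labelled), so that library 7A barely exceeded saline replicate 2. Laptm5, a lysosomal membrane protein of blood lineages, was at 7.85 and 17.6 CPM and then 29.9, 24.4 and 17.8 CPM. Cd53, a tetraspanin, was at 2.08 and 7.04 CPM and then 13.7, 8.27 and 7.75 CPM. None of these 3 overlapped, and in each the lowest DTx-labelled library was 7A. Ly86, a secreted partner of the receptor RP105, had the widest range of all members, 13.8-fold, from 0.877 and 6.10 CPM (saline) to 12.1, 7.59 and 5.07 CPM (DTx-labelled). Ptprc, the leukocyte phosphatase CD45, was lowest per kb of the 30 genes and was at 0.646 and 2.51 CPM (saline) against 8.46, 1.93 and 3.19 CPM (DTx-labelled). In both of these genes the groups overlapped, Ly86 through library 7A and Ptprc through library 6A. Ptprc had only 14 counts in saline replicate 1, the fewest of any member in any library, and its log2 fold change of 1.53 had an interval from -0.40 to 3.46.

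Transcription factors and the phosphatase of the class had low levels with no overlap. Spi1, which encodes PU.1, the factor that sets up the myeloid lineage, was at 1.02 and 1.97 CPM (saline) against 6.13, 3.67 and 2.79 CPM (DTx-labelled). Its log2 fold change was 1.49 ± 0.480 (SE, edgeR adjusted p = 0.742). Irf8, a partner of PU.1, was at 1.20 and 2.91 CPM and then 5.76, 3.36 and 3.418 CPM. Inpp5d, the inositol phosphatase SHIP1 that restrains signals from Trem2 and Fc receptors, was at 0.877 and 3.81 CPM and then 5.39, 4.17 and 4.73 CPM. All 3 genes were higher in each DTx-labelled library than in either saline library, and Irf8 and Inpp5d came within 1 CPM of saline replicate 2 in 2 of them.

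The balance of activation-linked against homeostatic genes was then taken within each library, where the scaling of that library cancels. The median log2 CPM of the activation-linked genes minus that of the homeostatic genes was -0.59 and -0.87 with saline against 0.19, -0.91 and -0.35 in 5A, 6A and 7A. The groups overlapped, since library 6A was the lowest of all 5 and libraries 5A and 7A were above both saline libraries. The mean difference between groups was 0.37 on the log2 scale, smaller than the pooled within-group SD of 0.46, and it was 0.098 without library 5A. The general myeloid median minus the homeostatic median was -0.80 and -0.43 in saline and 0.00, -0.65 and -0.24 in the DTx-labelled libraries, which also overlapped. As summed levels, activation-linked genes were 31.1% and 26.7% of the homeostatic genes in saline and 60.8%, 32.7% and 46.0% in 5A, 6A and 7A. Those shares did not overlap, but they rest on Sall1: without it they were 49.0% and 32.6% in saline and 69.1%, 38.0% and 56.9% in the DTx-labelled libraries, and saline replicate 1 exceeded library 6A.

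**Figure D4:**
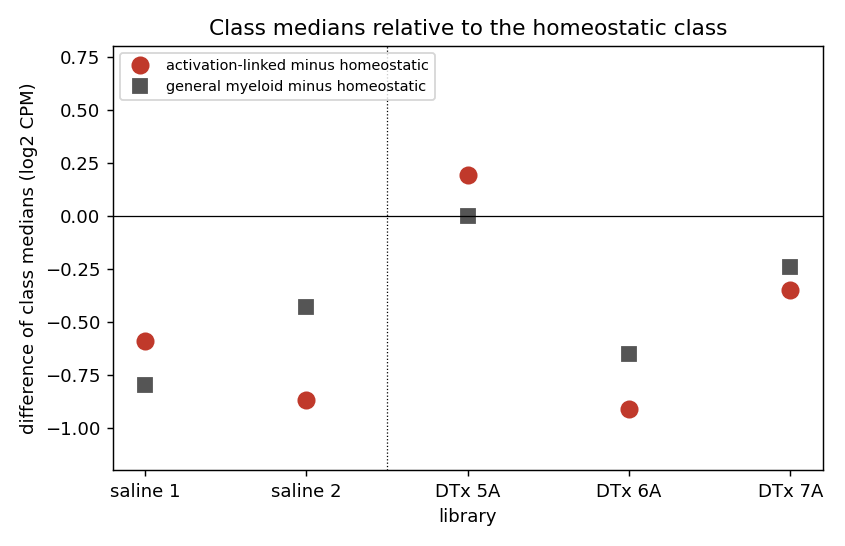
Difference of class medians from the homeostatic class in each library, in log2 CPM, with circles for activation-linked genes and squares for general myeloid genes and a dotted line between saline and DTx-labelled libraries. The circles run from -0.91 in library 6A to 0.19 in library 5A, and both saline libraries lie within that range.

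Differences between libraries of the same group took a different form in each group. From saline replicate 1 to saline replicate 2, the median fold was 3.01 for homeostatic, 2.61 for activation-linked and 3.39 for general myeloid genes, so the classes moved by like amounts. From the mean of libraries 6A and 7A to library 5A, the median fold was 1.39 for homeostatic genes, with P2ry12 at 1.07 and Tmem119 at 1.15. It was 2.08 for activation-linked and 1.85 for general myeloid genes, with Fcer1g at 2.42, Cd68 at 2.41 and Ptprc at 3.30. Libraries 6A and 7A, averaged, were close to saline replicate 2: the median fold between them was 0.951 for homeostatic, 1.21 for activation-linked and 1.20 for general myeloid genes. Cd83 was the exception at 3.23.

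**Figure D5:**
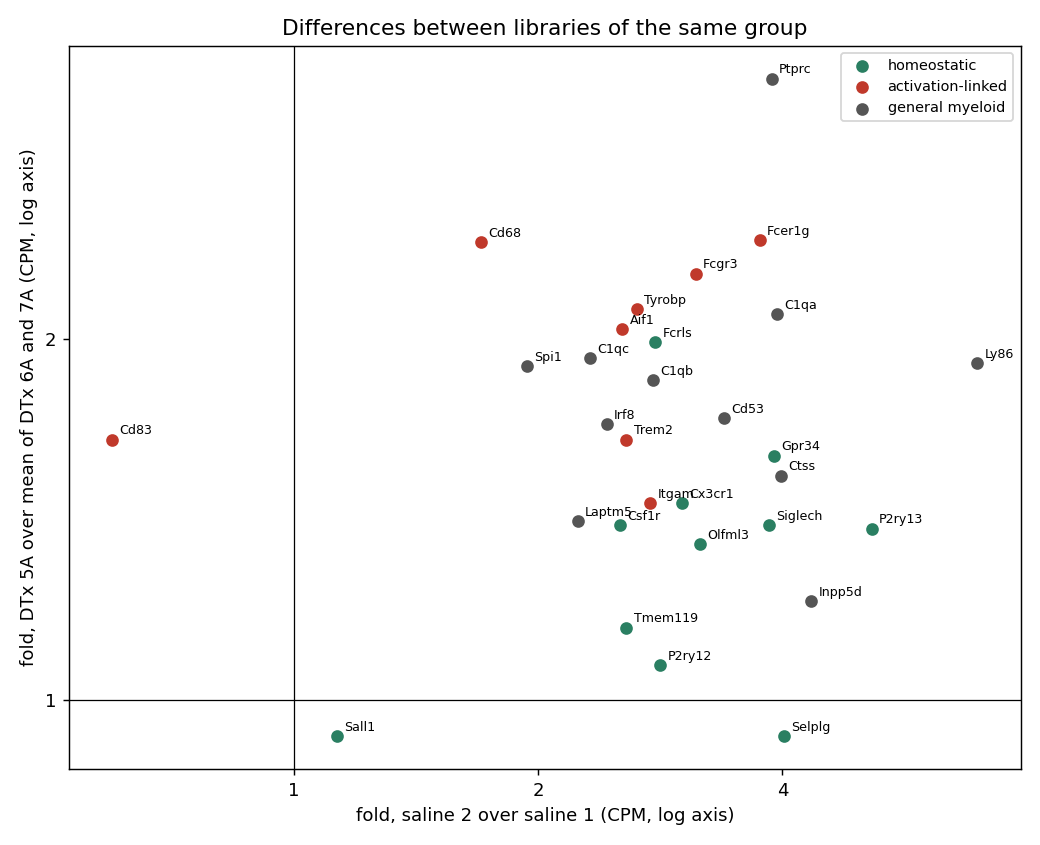
Fold of saline replicate 2 over saline replicate 1 (x axis) against fold of library 5A over the mean of libraries 6A and 7A (y axis) for the 30 genes, both on log axes, coloured by class. Homeostatic genes lie low on the y axis at 0.933 to 1.99, and the activation-linked genes span 1.46 to 2.42, with Cd83 alone left of 1 on the x axis.

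Markers of border macrophages, the macrophages of meninges and vessels, moved with the second of these patterns. Their summed level over 10 genes was 22.8 and 30.2 CPM (saline) against 147, 20.3 and 58.4 CPM (DTx-labelled). Library 5A was highest for 9 of the 10, against 19.7% of all genes. Mrc1, the mannose receptor, was at 4.34 and 6.5 CPM (saline) against 37.9, 5.10 and 14.7 CPM (DTx-labelled). F13a1, a coagulation factor chain made by such macrophages, was at 6.74 and 8.11 CPM and then 51.6, 4.54 and 20.7 CPM. Ms4a7 and Pf4 were also highest in library 5A, at 6.03 and 9.62 CPM. Of 9 border macrophage genes tested, 0 passed the edgeR adjusted threshold and 0 had an unadjusted p under 0.05, with a median log2 fold change of 1.49, and the groups overlapped in all 9. Libraries 5A and 7A, with the highest border macrophage levels, were also those with the highest activation-linked against homeostatic difference, and library 6A was lowest in both. The part of these cells in the members' values was not tested.

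Monocyte markers were also highest in library 5A. Summed over 12 genes they were at 17.5 and 14.2 CPM (saline) against 36.5, 15.5 and 21.0 CPM (DTx-labelled). Besides Ccr2, those with library 5A highest included Cd44, an adhesion receptor not limited to monocytes, at 13.3 CPM there and 3.14 to 3.65 CPM elsewhere. Fn1, which encodes fibronectin, was at 6.66 CPM in library 5A and 1.25 to 2.39 CPM elsewhere, and Ms4a4c at 1.16 CPM against 0.0462 to 0.342 CPM. Vcan, the proteoglycan versican, was highest in library 7A, with 7.71 and 8.61 CPM (saline) against 10.9, 9.58 and 13.7 CPM (DTx-labelled), and Hp, haptoglobin, was highest in saline replicate 1, at 4.29 CPM. In contrast, Ly6c2, Plac8 and Chil3, which are markers of classical monocytes, were at 0.311 CPM or less in every library, and Ly6c2 had no count in the 3 DTx-labelled libraries. Of the 4 monocyte genes tested (Vcan, Hp, Fn1 and Cd44), 0 passed the edgeR adjusted threshold. At an unadjusted p under 0.05 there were 0, against 4.49% of all genes higher in the DTx-labelled libraries and 2.19% lower. The part of monocytes in the members' values was not tested. Among neutrophil and lymphocyte genes, Ly6g, Retnlg, Gzma and Ms4a1 had no count in any library, and the summed level of the 11 listed genes in the table was at most 0.581 CPM.

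Genes linked to the disease-associated state of microglia, a phagocytic and lipid-handling state, were looked at as the wider programme. Of 18 tested among 20 listed, 0 passed the edgeR adjusted threshold. With DTx-labelled higher, 3 had an unadjusted p under 0.05, against 4.49% of all genes. The log2 fold change was above 0 for 14, against 50.3% of all genes, with a median of 0.26. It was below 0 for Lgals3 (-0.335), Csf1 (-0.266), Cd9 (-0.069) and Ctsd (-0.06). Clec7a, the beta-glucan receptor dectin-1, was at 0.277 and 0.404 CPM (saline) against 2.48, 0.746 and 0.740 CPM (DTx-labelled). Lyz2, a lysozyme of macrophages and monocytes, was at 6.42 and 9.82 CPM and then 91.3, 9.76 and 29.2 CPM. B2m, the light chain of class I histocompatibility molecules, was at 90.6 and 232.9 CPM and then 349.2, 495.9 and 246.7 CPM, and Ccl6, a chemokine, at 0.600 and 1.61 CPM and then 3.59, 1.37 and 2.17 CPM. Lyz2 was highest in library 5A and next in library 7A, whereas B2m was highest in library 6A. Astrocytes also express Apoe and several cathepsins of this list, and Apoe alone was at 10570 to 20210 CPM.

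A further list of 25 microglia genes that are not members had 24 genes tested. Of these 22 had a log2 fold change above 0, against 50.3% of all genes, with a median of 0.64. The edgeR adjusted threshold was passed by 0. With DTx-labelled higher, 2 had an unadjusted p under 0.05, against 4.49% of all genes. Dock2, a guanine nucleotide exchange factor of leukocyte migration, was at 0.831 and 1.44 CPM (saline) against 3.38, 2.49 and 3.08 CPM (DTx-labelled). Vav1, another exchange factor of blood cells, was at 0.646 and 1.17 CPM and then 3.01, 2.55 and 2.05 CPM. For both genes every DTx-labelled library exceeded both saline libraries, and the edgeR adjusted p was 0.742. Groups did not overlap for 4 genes with DTx-labelled higher, against 12.1% of all genes, and for 1 with DTx-labelled lower, against 8.99%. The lower one was Lpcat2, at 22.25 and 25.4 CPM (saline) against 20.2, 15.05 and 22.0 CPM (DTx-labelled). Cmtm6 and Mef2c, with log2 fold changes of 0.44 and 0.66, are not limited to microglia.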

How the data were processed

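The authors deposited raw read counts per gene symbol, 1 column per library, per the file headers. Alignment and counting tools named in the submitters' processing notes are STAR 2.7.5c and featureCounts 2.0.1, with fastp 0.23.2 for reads and the builds GRCm38 and mm10. Their settings and the annotation were not given in the sources used here. Saline columns were matched to replicates 1 and 2 by the word Ctrl and their number. The numbers of the DTx columns match no label, so these columns were assigned to the group only. The table has 1 more library column, left unused.

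Counts were compared with edgeR 4.0.16 in R 4.3.3: filterByExpr by group (minimum count 10), TMM scaling over the filtered genes, robust quasi-likelihood F test, Benjamini-Hochberg adjustment over all genes tested, threshold 0.05. Log2 CPM values have a prior count of 2. Intervals of fold changes are 95% intervals from the fitted SE. Exon lengths and coordinates come from GENCODE M21 (GRCm38), promoters from RefSeq (GRCm38.p6). Alternatives were other scalings, filters, DESeq2 1.42.0, limma-voom (limma 3.58.1) and each library left out.

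Members, classes and lists were chosen with earlier results of these data known. All 30 members are named, and of each further list up to 4 genes with the smallest p and markers at 0 counts. Plac8, Chil3, Ms4a4c, Apoe and the neuron markers were named after their values were seen. So were Jun, Fos, Junb, Egr1, Ier2, Lgals3, Csf1, Cd9, Ctsd and Lpcat2. Protein sequences were not used here. Whether libraries came from separate animals is not stated in the labels, and p-values then reflect only how these libraries vary, which may be technical.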

Additional observations from a re-analysis of the deposited data

How the results depend on the processing

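No paired analysis was possible because the DTx columns carry numbers that match no replicate in the labels. With total-count, RLE or upper-quartile scaling, with either other filter and with limma-voom, 0 members and 5 genes were called. DESeq2 called 111 genes and 1 member, Cd83 (log2 fold change 1.543, adjusted p = 0.0499). Leaving out a library gave 3 (without 6A) to 13 genes (without 7A) and 0 members. It gave a members' median log2 fold change of 0.511 (without saline replicate 1) to 1.953 (without saline replicate 2), and a difference in summed log2 level of 0.425 to 1.762 in the same order. Where a saline library was left out, the lone one was assumed to vary like the others.

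The log2 fold change of 5 homeostatic genes turned from above to below 0 without saline replicate 1, and was highest without saline replicate 2: -0.202 and 1.763 for Gpr34, -0.012 and 1.49 for P2ry12, -0.02 and 2.342 for P2ry13, -0.138 and 1.871 for Selplg, and -0.045 and 1.898 for Siglech. Sall1, below 0 with all libraries, was at -0.181 without saline replicate 1. The activation-linked minus homeostatic difference stayed above 0, at 0.098 (without library 5A) to 0.65 (without 6A). It was 0.481 without Sall1 and 0.353 without Cd83, both chosen after seeing the data. Depth ranged from 14 counts of a member in a library upwards. The SE of the log2 fold change was 0.795 for Ptprc, with 14 to 160 counts a library, 0.601 for Ctss, with 294 to 2003, and 0.142 for Sall1, with 461 to 727.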

Other observations

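Summed as a list, genes that dissociation is known to induce in microglia did not share the members' order of libraries. In saline replicate 1 the sum was 1252 CPM, against 162 CPM for the 30 members, so it cannot be assigned to microglia. The part of handling in the members' values was not tested. Their summed level over 20 genes was 1252 and 715 CPM (saline) against 897, 482 and 914 CPM (5A, 6A and 7A). Of 19 tested, 8 had a log2 fold change above 0, against 50.3% of all genes, with a median of -0.31, and 0 passed the edgeR adjusted threshold. At an unadjusted p under 0.05, 3 were higher in the DTx-labelled libraries, against 4.49% of all genes, and 0 were lower, against 2.19%. Ccl3 and Ccl4, chemokines of activated microglia and macrophages, were the ones with the smallest p. Ccl3 was at 0.0923 and 0.0897 CPM (saline) against 2.17, 0.560 and 1.60 CPM (5A, 6A and 7A). Ccl4 was at 0.139 and 0.493 CPM and then 5.97, 1.68 and 2.56 CPM, and library 5A was highest for both. Nfkbia, the NF-kB inhibitor, was highest in library 7A, at 97.4 CPM, and Ier3, an immediate early gene, was at 2.33 CPM in library 5A and 0.508 to 1.42 CPM elsewhere. The groups did not overlap, with DTx-labelled higher, for 4 genes (Ccl3, Ccl4, Nfkbia and Ier3), against 12.1% of all genes. With DTx-labelled lower they did not overlap for 1 gene, Jun, against 8.99%. Jun was at 234.6 and 134.9 CPM (saline) against 122.7, 67.4 and 131.4 CPM (5A, 6A and 7A), with library 7A close to saline replicate 2. Fos, Junb, Egr1 and Ier2 had log2 fold changes of -0.312, -0.647, -0.727 and -1.19, with groups that overlapped.

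Markers of other brain cells ran in other orders again. Oligodendrocyte markers summed to 60230 and 92810 CPM (saline) against 42980, 44300 and 90700 CPM (5A, 6A and 7A), so they were lowest where the members were highest. Ependymal markers summed to 253.5 CPM in saline replicate 1 and 158.7 CPM in library 5A, against 29.3 to 44.2 CPM in the other 3 libraries, and these were the libraries lowest and highest for the members. Endothelial markers summed to 16.9 to 36.3 CPM over 10 genes.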
